A study of Mus musculus with 2 samples.

Results

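The mouse genes Neurod1, Neurod2, Neurod4, Neurod6, Nhlh1 and Nhlh2 encode basic helix-loop-helix (bHLH) transcription factors of differentiating neurons. They were taken by gene symbol from the count matrices of 2 single-cell RNA-seq libraries of the embryonic mouse telencephalon, and each symbol matched 1 row of the 28001 genes listed for the first library and of the 32286 listed for the second. All 6 genes were read in both libraries and none was dropped. The first library was made from septal explants of C57BL/6J embryos and pooled 2 ages that were also 2 mouse lines: 8 PGKCre;Rosa26YFP embryos at E11.5, from 2 litters, and 4 Dbx1Cre;Rosa26tdTomato embryos at E12.5, from 2 litters. PGKCre acts in all tissues, whereas Dbx1Cre marks only cells that expressed Dbx1 or descend from such cells, so unlabelled cells of the second line carry no reporter. The second library was made from telencephalic vesicles of 3 wild-type C57BL/6J embryos from 2 litters, with no reporter, labelled E12 and given as E11.5 to E12 in the study's methods. The labels give wild-type as the genotype of both samples. Each group therefore holds 1 library, no difference below has a replicate check, and the intervals given are 95% Poisson or exact binomial intervals that cover counting error only.

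Proneural factors such as Neurog1 and Neurog2 start neuronal differentiation in dividing progenitors, and NeuroD factors act downstream of them, as bHLH dimers with the widely expressed E proteins Tcf3, Tcf4 and Tcf12 that bind the 6-base E-box. In the developing cortex, apical progenitors (APs) divide at the ventricle and produce either neurons or basal progenitors (BPs), which express Eomes and divide again, away from the ventricle, to give neurons. Neurod1 is best known from BPs and young glutamatergic neurons, Neurod2 and Neurod6 from postmitotic cortical projection neurons, Neurod4 from progenitors that are committing to a neuronal fate, and Nhlh1 and Nhlh2, a separate pair of small bHLH factors, from newly born neurons in many parts of the nervous system. Id and Hes proteins hold this cascade back, Id proteins by binding E proteins and Hes proteins by repressing proneural genes.

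The genes lie on 6 chromosomes of GRCm38. Neurod1 spans chr2:79452521-79456751, Neurod2 chr11:98325415-98329648, Neurod4 chr10:130268152-130280240, Neurod6 chr6:55677822-55681263 and Nhlh1 chr1:172052292-172057573, all on the minus strand and each with 1 transcript of 2 exons in GENCODE M21. Nhlh2 spans chr3:102010076-102015492 on the plus strand and has 3 transcripts of 2 to 3 exons. Neurod1 is the only one of the 6 that overlaps other annotated genes, Cerkl on the same strand and Gm26755 on the opposite strand, so reads from Cerkl transcripts could enter its counts. Because these factors bind E-boxes, the 250 bases before each RefSeq start were searched for CANNTG on both strands. The motif is common: 66.2% of 32851 mouse promoter windows of this length held it. It occurred 3 times before Neurod2, 2 times before Neurod6 and before Nhlh2, 1 time before Neurod1 and before Nhlh1, and 0 times in both windows listed for Neurod4. The windows of Neurod2, Nhlh1 and Nhlh2 shared the variant CAGATG, a form read with its reverse complement that 14.4% of windows held, at 118, 203 and 127 bases before the start. The 4 stretches below, from RefSeq on GRCm38.p6, show those 3 genes and, for contrast, Neurod4. Each is written 5′ to 3′ on the gene's own strand, in lower case with E-boxes in capitals, and ends before the GENCODE transcript. They cover chr11:98329649-98329895 (minus strand) for Neurod2, chr1:172057597-172057846 (minus strand) for Nhlh1, chr3:102009895-102010075 (plus strand) for Nhlh2 and chr10:130280255-130280504 (minus strand) for Neurod4. A match is a match of letters only and does not show that a factor binds there.
Neurod2: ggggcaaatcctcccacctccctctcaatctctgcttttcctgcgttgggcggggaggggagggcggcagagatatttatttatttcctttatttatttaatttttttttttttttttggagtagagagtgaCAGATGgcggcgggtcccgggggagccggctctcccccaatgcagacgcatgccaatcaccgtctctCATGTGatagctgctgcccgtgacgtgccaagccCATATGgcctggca
Nhlh1: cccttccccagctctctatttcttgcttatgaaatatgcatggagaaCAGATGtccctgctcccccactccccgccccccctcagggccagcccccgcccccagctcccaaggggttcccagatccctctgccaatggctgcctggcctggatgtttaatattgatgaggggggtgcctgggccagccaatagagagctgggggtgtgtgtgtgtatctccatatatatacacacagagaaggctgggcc
Nhlh2: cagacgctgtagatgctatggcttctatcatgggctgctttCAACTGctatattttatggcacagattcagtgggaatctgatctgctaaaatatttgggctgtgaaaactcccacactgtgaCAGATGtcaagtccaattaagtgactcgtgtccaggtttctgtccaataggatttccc
Neurod4: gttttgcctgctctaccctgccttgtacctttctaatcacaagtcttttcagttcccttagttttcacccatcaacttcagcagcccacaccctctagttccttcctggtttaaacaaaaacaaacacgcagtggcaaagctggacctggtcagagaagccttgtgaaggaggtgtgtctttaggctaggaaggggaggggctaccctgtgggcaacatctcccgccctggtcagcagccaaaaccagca

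The septal library held 5827 barcodes with 83103280 UMIs and the vesicle library 14283 with 194821794. After removal of barcodes with an outlying mitochondrial share and of called doublets, 5384 cells with a median of 12868.5 UMIs and 11758 cells with a median of 9058.5 UMIs were kept. The libraries shared 1 barcode. They differ in dissection, mouse line, chemistry and Cell Ranger version and, in part, in age. Levels were therefore compared within a library and only set side by side between them. Cell classes were rebuilt by clustering without the 6 genes and named from marker genes, so a class carries the word "like" where its name rests on such markers, and differences between classes are descriptions. The largest neuronal class was named Tbr1 neurons after that gene, which marks early pallial glutamatergic neurons: Tbr1 stood at 513 to 952 CPM (UMIs per 1000000 UMIs) in its 3 septal-explant clusters and at 384 CPM in its 1 vesicle cluster. Gad2, which makes GABA, stood at 344 CPM in the GABAergic-like neurons of the explants and at 733 to 793 CPM in those of the vesicle.

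Neurod1, Nhlh1 and Nhlh2 were high in BP-like cells and in each class of glutamatergic neurons in both libraries, Neurod4 was high in BP-like cells and low in Tbr1 neurons, and Neurod2 and Neurod6 were highest in Tbr1 neurons and low in septal glutamatergic-like neurons. All 6 were low in APs, in GABAergic-like neurons and in subpallial-like BPs, cells between the APs and the GABAergic-like neurons. The subpallial-like BPs held 0 to 5.22 CPM of a member in the explants (109 cells) and 0 to 2.59 CPM in the vesicle (733 cells). In the septal explants the 6 genes stood at 0.65 to 3.09 CPM in the 1024 pallial-like APs, and in the vesicle at 0.03 to 3.83 CPM in 1724 such cells. The non-neural cells, which should lack these genes, were taken as the background. They held 0.66 to 21.0 CPM in the explants (70 cells, median 19923.5 UMIs) and 0 to 0.92 CPM in the vesicle (989 cells, median 8992 UMIs). In the explants the share of cells with a UMI of Neurod1 was 2.93% in pallial-like APs (median 14958.5 UMIs) against 11.4% in the non-neural cells. That AP signal was read as background. In the explants 2 of the 70 non-neural cells, both erythroid-like, held 22 of their 32 UMIs of Nhlh2 and 11 of their 18 of Neurod1. Without these 2 cells, which were chosen after their values were seen, the background was 0 to 6.88 CPM, and 8.82% of cells held Neurod1. In the vesicle the APs held Neurod1 at 3.83 CPM (3.24 to 4.50), above the 0.92 CPM (0.46 to 1.65) of the non-neural cells, in 4.93% of cells against 0.71%.

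**Figure D1:**
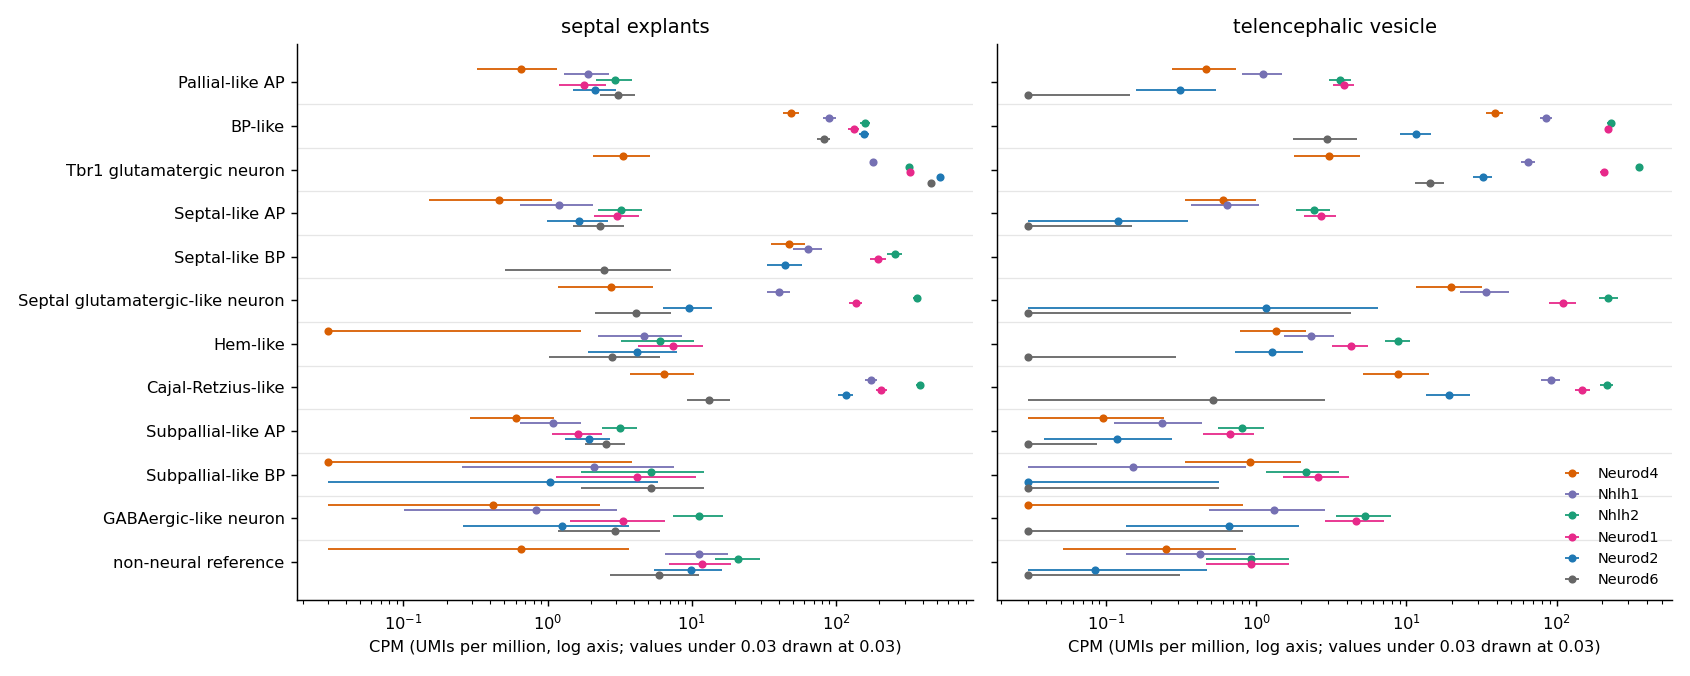
Level of each gene by cell class in each library, in CPM on a log axis, with points for the summed UMIs of a class and lines for the 95% Poisson interval. Neurod1, Nhlh1 and Nhlh2 sit far to the right in BP-like cells, Tbr1 neurons, septal glutamatergic-like and Cajal-Retzius-like neurons, whereas Neurod4 is high in BP-like cells (48.8 CPM in the explants) and low in Tbr1 neurons (3.34 CPM), and Neurod2 and Neurod6 are low in septal glutamatergic-like neurons (9.56 and 4.10 CPM). No septal-like BP cluster was found in the vesicle.

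Neurod4 was highest in BPs. In the septal explants it reached 48.8 CPM (42.5 to 55.7) in 323 BP-like cells and 46.8 CPM (35.5 to 60.7) in 128 septal-like BPs, a pair of levels whose intervals overlap. It stood at 3.34 CPM (2.07 to 5.11) in 498 Tbr1 neurons, 2.73 CPM in 255 septal glutamatergic-like neurons and 6.42 CPM in 218 Cajal-Retzius-like cells, again with overlapping intervals. In the vesicle it stood at 38.9 CPM (34.1 to 44.2) in 640 BP-like cells and at 3.05 CPM in 685 Tbr1 neurons. Even in BPs it was found in a minority of cells: 33.1% in the explants (median 12487 UMIs) and 22.3% in the vesicle (median 7506.5 UMIs), or 25.3% and 11.3% after each cell was thinned to 8000 and 3500 UMIs. The non-neural cells gave 1.43% and 0.20%.

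Neurod1 was high in BPs and stayed high in glutamatergic neurons. In the explants its level was highest in Tbr1 neurons at 326 CPM (312 to 341), followed by Cajal-Retzius-like cells at 206 CPM (189 to 224) and septal-like BPs at 196 CPM (172 to 223), whose intervals overlap. Septal glutamatergic-like neurons at 137 CPM (124 to 151) and BP-like cells at 132 CPM (122 to 143) came last and also overlap. In the vesicle BP-like cells at 220 CPM (209 to 233) and Tbr1 neurons at 206 CPM (194 to 218) did not separate, above Cajal-Retzius-like cells at 148 CPM (132 to 166). Neurod1 was detected in 86.7% of Tbr1 neurons of the explants and in 66.4% of those of the vesicle.

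Neurod2 and Neurod6 were highest in the Tbr1 neurons. In the explants Neurod2 fell in steps from Tbr1 neurons at 526 CPM (509 to 545) through BP-like cells at 156 CPM, Cajal-Retzius-like cells at 116 CPM and septal-like BPs at 44.3 CPM to septal glutamatergic-like neurons at 9.56 CPM, with no overlap between neighbours. Neurod6 stood at 457 CPM (441 to 475) in Tbr1 neurons, 82.0 CPM in BP-like cells and 13.2 CPM in Cajal-Retzius-like cells. Its 4.10 CPM in septal glutamatergic-like neurons lay below the 5.90 CPM of the non-neural cells (4.81 CPM without the 2 erythroid-like cells). In the vesicle both genes were sparse. Neurod2 gave 329 UMIs in 208 kept cells and reached 32.1 CPM (27.6 to 37.2) in Tbr1 neurons. Neurod6 gave 100 UMIs in 66 cells, 80 of them in Tbr1 neurons at 14.4 CPM (11.4 to 17.9) and 18 in BP-like cells.

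Nhlh1 and Nhlh2 were not restricted to the pallial classes. In the explants Nhlh1 stood at 182 CPM (171 to 192) in Tbr1 neurons and 174 CPM (159 to 191) in Cajal-Retzius-like cells, which did not separate, and was lower in BP-like cells at 90.01 CPM, septal-like BPs at 64.1 CPM and septal glutamatergic-like neurons at 40.0 CPM (33.0 to 47.9). Nhlh2 had another order, with Cajal-Retzius-like cells at 379 CPM (356 to 404) and septal glutamatergic-like neurons at 365 CPM (343 to 387) above Tbr1 neurons at 320 CPM (306 to 334), septal-like BPs at 255 CPM and BP-like cells at 159 CPM. In the vesicle Nhlh2 was highest in Tbr1 neurons at 352 CPM (337 to 368), while BP-like cells at 229 CPM, septal glutamatergic-like neurons at 221 CPM and Cajal-Retzius-like cells at 215 CPM overlapped. Nhlh1 in the vesicle stood at 91.2 CPM in Cajal-Retzius-like cells and 84.97 CPM in BP-like cells, which overlap, and at 64.8 CPM (58.3 to 71.8) in Tbr1 neurons.

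To follow the order of onset, the pallial APs, BP-like cells and Tbr1 neurons of each library, 1845 and 3049 cells, were placed along an axis, the log2 ratio of 11 neuronal to 9 AP genes, none of them a bHLH gene of this set, and cut into 10 bins of equal size. In the explants bin 6 held 62.0% APs and 38.0% BPs, bin 7 84.3% BPs, and bin 8 67.4% neurons. Neurod4 rose and fell within this stretch. It stood at 2.1 CPM in bin 5, 8.2 in bin 6, 60.5 (51.1 to 71.2) in bin 7, 23.5 in bin 8 and 2.4 in bin 10, so its last bin lay 25.4-fold below its peak. In the vesicle it stood at 14.4 CPM in bin 6, 48.2 (40.1 to 57.3) in bin 7, 17.0 in bin 8 and 1.6 in bin 10, 29.2-fold below its peak. No other member fell so far: in the last bin of the explants the other 5 stood 1 to 1.62 times below their peaks, and in that of the vesicle 1.19 to 3.103 times.

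**Figure D2:**
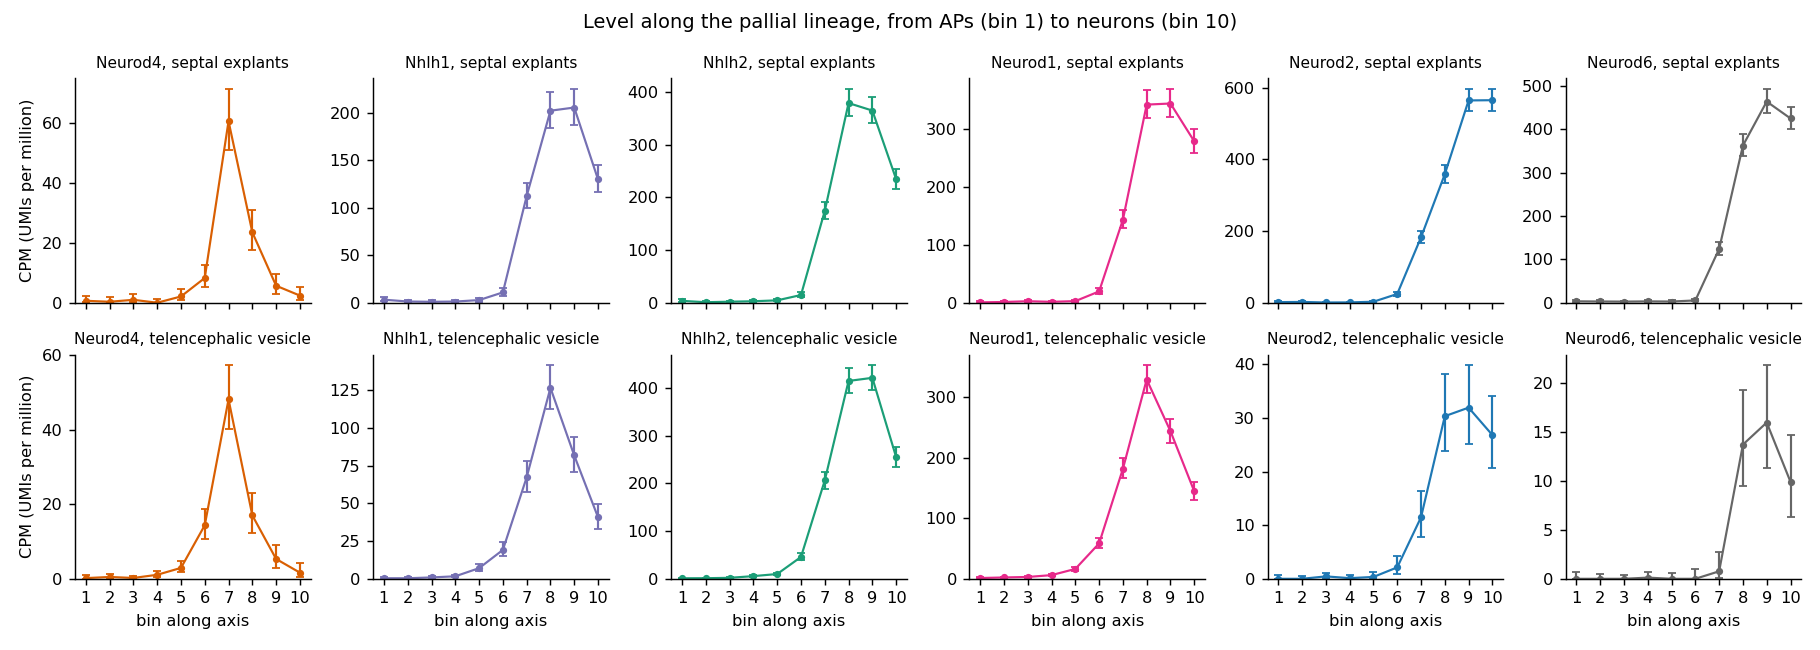
Level of each gene, in CPM, in 10 bins along the pallial lineage from APs (bin 1) to neurons (bin 10), with 95% Poisson intervals, in the septal explants (top) and the telencephalic vesicle (bottom), each panel on its own axis from 0. Neurod4 peaks in bin 7 at 60.5 and 48.2 CPM and falls back, while Neurod2 of the explants reaches 564 and 565 CPM in bins 9 and 10.

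Neurod1 and the Nhlh genes reached a plateau as cells became neurons and then declined. Neurod1 of the explants stood at 143 CPM in bin 7, 342 in bin 8, 344 in bin 9 and 278 in bin 10. Nhlh1 stood at 112, 202, 206 and 130 CPM and Nhlh2 at 174, 379, 365 and 235 CPM in the same bins. Each of these genes was lower in bin 10 than in bin 9, with no overlap of intervals. In the vesicle Neurod1 went from 330 CPM in bin 8 to 145 in bin 10 and Nhlh1 from 127 to 40.8. Neurod2 and Neurod6 showed no such decline in the explants: Neurod2 stood at 564 and 565 CPM in bins 9 and 10, and Neurod6 at 464 and 425 CPM with overlapping intervals.

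The axis percentile at which 50% of a gene's scaled UMIs had been passed put Neurod4 first in both libraries, at 65.9 in the explants and 66.0 in the vesicle. The next was Nhlh1 at 80.1 and 75.4, a gap of 14.2 and 9.45 percentile points. The remaining order was Nhlh2 at 80.2, Neurod1 at 81.5, Neurod6 at 83.3 and Neurod2 at 85.2 in the explants, and Neurod1 at 77.3, Nhlh2 at 80.5, Neurod2 at 81.4 and Neurod6 at 83.4 in the vesicle. These 5 genes spanned 5.15 and 8.00 percentile points, in each library less than the gap between Neurod4 and Nhlh1. Both spans and the vesicle gap of 9.45 points were less than the 10 points of 1 bin. A later fall, as in Neurod4, also moves this percentile forward, so it does not measure onset alone. The first bin at 50% of a gene's peak was bin 7 for Neurod4 and Nhlh1 in both libraries and for Neurod1 in the vesicle. For the other members it was bin 8. By the percentile, Neurod4 came first under each of 13 settings in each library. The percentile itself depends on which cells are placed on the axis. For Neurod4 it ran from 23.6 to 70.4 in the explants and from 23.2 to 66.1 in the vesicle. The near-equal values of the 2 libraries therefore carry little meaning. Of these settings, 1 left out the APs and kept BP-like cells and Tbr1 neurons, and it gave the lowest values.

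**Figure D3:**
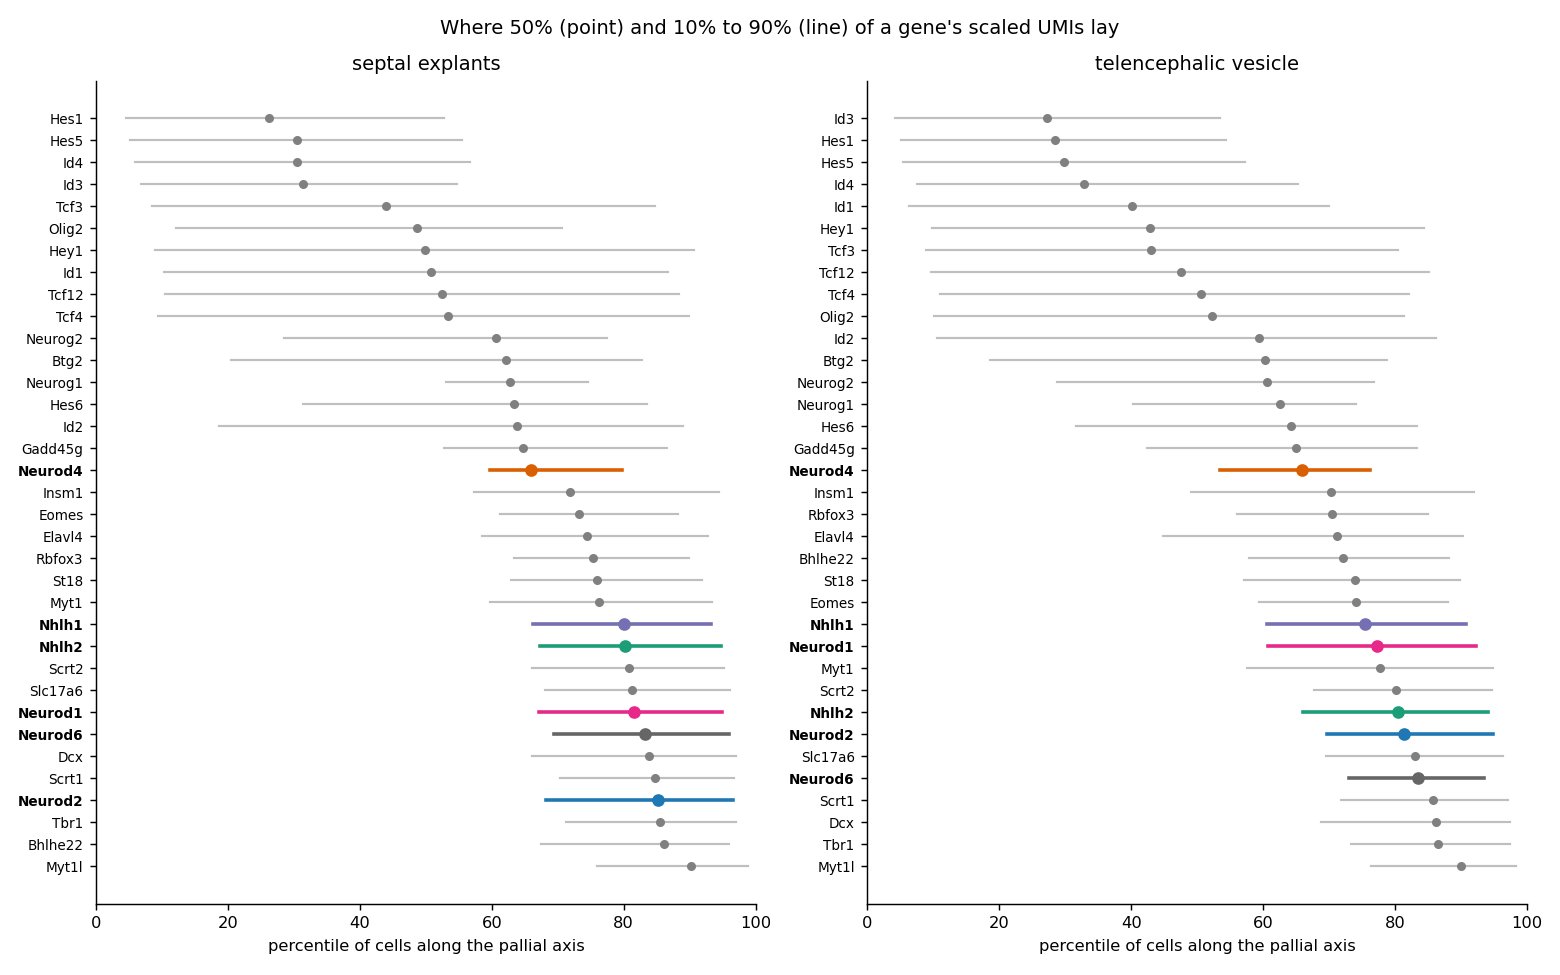
Percentile of cells along the pallial axis at which 50% (point) and 10% to 90% (line) of a gene's scaled UMIs lay, for the 6 genes (colour) and for other neuronal differentiation genes with at least 50 UMIs and Slc17a6 (grey), in each library. Neurod4 stands at 65.9 and 66.0, behind the Id, Hes and Neurog genes and ahead of the other 5 members, which crowd between 75.4 and 85.2.

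A list of 33 other neuronal differentiation genes, of which 29 had at least 50 UMIs in the pallial lineage of each library, gives the surroundings of this order. In each library 17 of the 29 lay before Neurod4, among them the proneural genes Neurog1 and Neurog2, the E protein genes Tcf3, Tcf4 and Tcf12, Hes1, Hes5 and the 4 Id genes. Btg2 and Gadd45g, genes of cell cycle exit, were also before it. In each library 6 lay between Neurod4 and the next member, and Eomes, Insm1, Elavl4, Rbfox3 and St18 were among these 6 in both. Myt1l and Tbr1 lay after the last member in both libraries. Neurog1, Neurog2, Eomes, Insm1, Btg2, Gadd45g, Bhlhe22, Tbr1, Hes1, Hes5 and Dcx were among the genes that named the classes or built the axis. Their places are therefore not independent of the classes and the axis.

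Between classes, a gene was counted as changed when it differed by at least 4-fold and had at least 50 UMIs in the cells compared. From pallial-like APs to BP-like cells 6 of 6 genes of the explants were higher, where 2.07% of 10620 genes were, by 26.5-fold (Neurod6, 19.8 to 36.2) to 74.7-fold (Neurod4, 41.0 to 152). The AP level of the explants was read as background, and it rests on 11 UMIs for Neurod4 and 52 for Neurod6. The sizes of these folds therefore do not rank the members by a rise from AP expression. In the vesicle 5 of the 5 with enough UMIs were higher, where 2.71% of 13340 genes were, by 37.4-fold (Neurod2, 20.1 to 75.8) to 84.0-fold (Neurod4, 52.0 to 144). No member was lower in either library, where 1.65% and 2.02% of genes were. In the APs only Neurod6 of the explants (52 UMIs) and Neurod1 and Nhlh2 of the vesicle (149 and 140) reached the minimum of 50 UMIs. The other members counted reached it through the BP-like cells, so these counts are not independent of the minimum. The median log2 difference was 5.98 for the members and -0.06 for all genes in the explants, and 5.99 and -0.11 in the vesicle. Of the 33 other differentiation genes, 16 of 27 with enough UMIs were higher and 2 (Id3 and Hes1) lower in the explants, and 17 of 29 were higher and 1 (Hes1) lower in the vesicle. The higher genes include Eomes, Neurog1, Neurog2, Btg2, Gadd45g and Insm1, markers that named the BP-like cells. Hes1 and Dcx belong to the axis, which also entered the naming. Their calls are therefore not independent of the classes.

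From BP-like cells to Tbr1 neurons 1 of 6 members was higher and 1 lower in each library, the same genes. Neurod6 was higher by 5.58-fold (5.01 to 6.24) in the explants, where 4.35% of 9535 genes were higher, and by 4.84-fold (2.88 to 8.58) in the vesicle, where 3.96% of 10972 were. Neurod4 was lower by 3.87 on the log2 scale in the explants, against 3.07% of genes lower, and by 3.67 in the vesicle, against 4.22%. The other 4 differed by less than 4-fold: Neurod1 by 2.47-fold in the explants and 0.93-fold in the vesicle, Neurod2 by 3.38-fold and 2.79-fold, Nhlh1 by 2.02-fold and 0.76-fold, and Nhlh2 by 2.02-fold and 1.54-fold. Of the 33 other genes, 4 of 28 were higher in the explants (Bhlhe22, Scrt1, Myt1l and Tbr1), and 4 were lower, among them Neurog1 and Neurog2. In the vesicle 3 of 29 were higher (Scrt1, Myt1l and Tbr1) and 10 lower, among them Neurog1, Neurog2, Id1, Id3 and Hes5. Tbr1, Bhlhe22, Neurog1 and Neurog2 were among the markers that named these classes, so their calls are not independent of the classes. The count of members higher rests on the threshold, since at 2-fold it was 5 in the explants and 2 in the vesicle, and at 8-fold it was 0 in both. It also moved with the cells and clusters. In the explants it was 2 with every barcode kept and at resolution 2.5, and 0 at resolution 0.8, where the log2 difference of Neurod6 was 1.76. In the vesicle it was 0 under 3 of the other cell filters and clusterings, where that of Neurod6 was 0.78 to 1.14.

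The Tbr1 neurons of the explants fell into 3 clusters that differed in these genes. The clusters had medians of 9836 to 12900 UMIs per cell. Neurod2 and Neurod6 were highest in the 105 cells led by Pcp4, Cnr1, Prdm8 and Bhlhe22, at 966 CPM (916 to 1019) and 1217 CPM (1160 to 1276). Neurod2 was found in 105 of these cells, with a median of 12 UMIs, and Neurod6 in 103, with a median of 14 UMIs. In the 261 cells led by Calb2, Tfap2e and Ebf1 they stood at 512 and 312 CPM, and in the 132 cells led by Barhl2 and Uncx at 104 and 47.6 CPM. For both genes the intervals of the 3 clusters lay far apart. Nhlh2 ran the other way, with 188 CPM (166 to 212) in the Pcp4 cluster, 340 CPM in the Calb2 cluster and 406 CPM (373 to 442) in the Barhl2 cluster. Nhlh1 stood at 162 to 194 CPM, with overlapping intervals. The BP-like cells were split as well, with Neurod6 at 130 CPM (112 to 148) in a cluster of 100 cells and 55.4 CPM (47.2 to 64.8) in one of 223 cells.

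**Figure D4:**
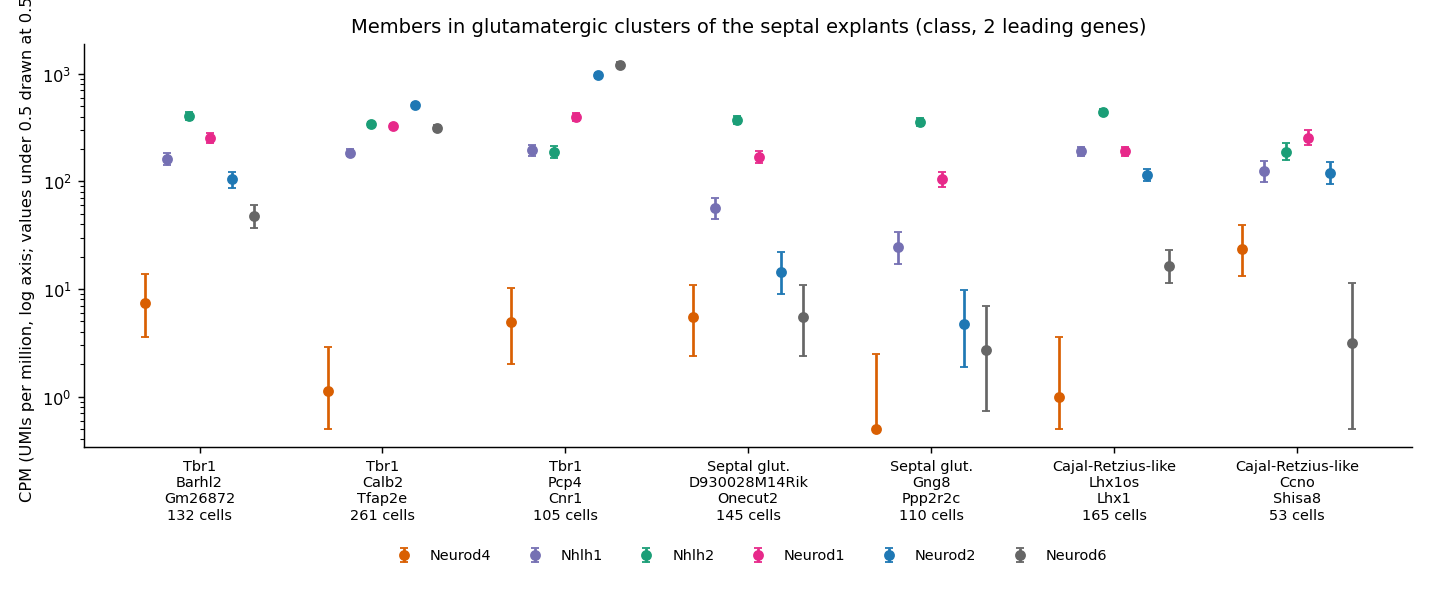
Level of each gene, in CPM on a log axis with 95% Poisson intervals, in the 7 glutamatergic clusters of the septal explants, named by class and 2 leading genes. Neurod6 runs from 1217 CPM in the Pcp4 cluster to 2.70 CPM in a septal cluster, whereas Nhlh2 stays between 188 and 439 CPM in all 7.

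The reporters were spread unevenly over these clusters. In the Pcp4 cluster 22.9% of cells (15.2 to 32.1) held only YFP UMIs, against 67.8% of the library, 15.2% held only tdTomato against 5.40%, and 56.2% held neither against 24.7%. In the Calb2 cluster 78.5% of cells held only YFP. Cells with both reporters numbered 112 in the library, beside 291 with only tdTomato, and 6 in the Pcp4 cluster, although no embryo carried both. A call from 1 UMI therefore does not place a cell in an embryo with certainty. Cells with both are not counted among the YFP or tdTomato cells below. With cells thinned or at least 3 reporter UMIs required, values by reporter moved beyond their counting interval in 21 of 84 comparisons. Among all Tbr1 neurons the 29 tdTomato cells stood at 865 CPM for Neurod2 and 958 CPM for Neurod6, and the 323 YFP cells at 433 and 317 CPM. Of the tdTomato cells 55.2% were in the Pcp4 cluster, and of the YFP cells 7.43%. Within that cluster Neurod6 stood at 1501 CPM (1349 to 1664) in 16 tdTomato cells and 1144 CPM (1025 to 1274) in 24 YFP cells. In its 59 cells with neither reporter Neurod6 stood at 1208 CPM (1132 to 1289), overlapping the YFP cells. In the 6 cells with both, Neurod6 was at 850 CPM (684 to 1043). In the Calb2 cluster it stood at 246 CPM (167 to 349) in 9 tdTomato cells and 321 CPM (299.9 to 342) in 205 YFP cells, with overlapping intervals. The YFP embryos were E11.5 and the tdTomato embryos E12.5, so age, mouse line and Dbx1 history cannot be told apart. Septal glutamatergic-like neurons showed less: 160 YFP cells and 36 tdTomato cells stood at 138 and 150 CPM for Neurod1 and at 347 and 400 CPM for Nhlh2.

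The septal lineage used part of the set. Along its axis in the explants (1145 cells from septal-like APs through septal-like BPs to septal glutamatergic-like neurons) Neurod4 peaked at 34.1 CPM (24.0 to 47.0) in bin 8 and was at 0 UMIs in bin 10. Neurod2 was transient here, at 6.4 CPM in bin 7, 51.7 in bin 8, 13.8 in bin 9 and 4.4 in bin 10, an 11.8-fold fall from its peak. Nhlh1 went from 77.5 CPM in bin 8 to 10.9 in bin 10 and Neurod1 from 232 to 91.2, while Nhlh2 peaked at 447 CPM in bin 9 and still stood at 284 in bin 10. Neurod6 stayed between 0.6 and 5.1 CPM in every bin, where the non-neural cells held 5.90 CPM, or 4.81 CPM without the 2 erythroid-like cells. In the vesicle the 95 septal glutamatergic-like neurons held 0 UMIs of Neurod6, which allows a share of up to 3.16% of cells with a UMI when 3 cells are taken as the limit of a count of 0, and 1 UMI of Neurod2. Their Nhlh2 stood at 221 CPM (191 to 255), their Neurod1 at 111 CPM and their Neurod4 at 19.8 CPM, from 17 UMIs in 6 cells. This vesicle cluster was not recovered under 5 of the other settings, so its values rest on the clustering used.

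**Figure D5:**
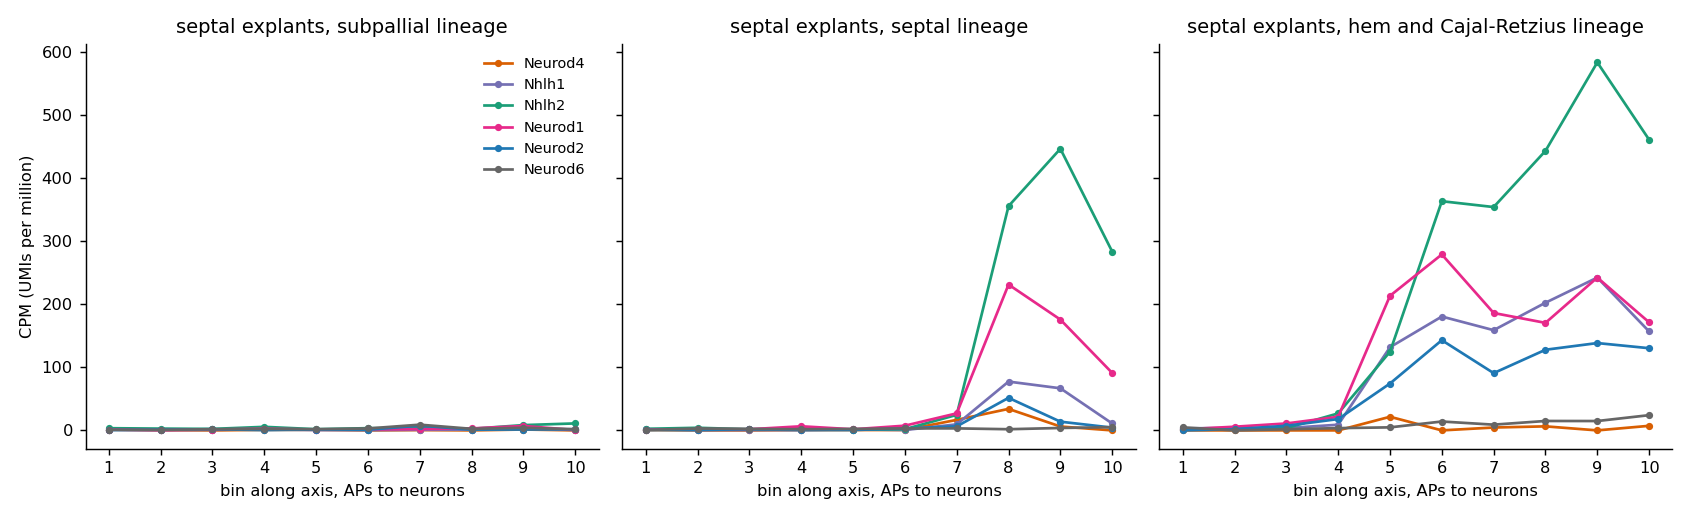
Level of each gene, in CPM, in 10 bins from APs to neurons along the subpallial, septal, and hem and Cajal-Retzius lineages of the septal explants, on a shared axis. In the septal lineage Neurod2 and Neurod4 rise at bin 8 (51.7 and 34.1 CPM) and fall back, in the hem and Cajal-Retzius lineage Neurod2 stays between 74.4 and 143 CPM from bin 5, and in the subpallial lineage each gene stays under 12 CPM.

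Set directly against each other in the explants, Tbr1 neurons exceeded septal glutamatergic-like neurons at least 4-fold in 3 of 5 members with enough UMIs, where 1.17% of 9225 genes did, and were lower in 0, where 1.17% also were. Neurod6 was 112-fold higher (63.8 to 216), Neurod2 55.1-fold (38.0 to 83.0) and Nhlh1 4.54-fold (3.75 to 5.54). Neurod1 was 2.38-fold higher (2.14 to 2.66), and Nhlh2 was at 0.88 of the septal level (0.81 to 0.95). Of the 33 other genes 3 of 29 were higher (Tcf4, Hey1 and Scrt2) and 3 lower, among them Olig2. The 2 septal clusters also differed: the 145 cells led by Onecut2 and Isl1 held Neurod1 at 170 CPM (149 to 193) and Nhlh1 at 56.0 CPM, and the 110 cells led by Gng8 and Ppp2r2c at 105 CPM (88.8 to 122) and 24.3 CPM, with Nhlh2 at 371 and 358 CPM. The Gng8 cluster had Tbr1 at 705 CPM, within the range of the Tbr1 neurons, and still only 4.72 CPM of Neurod2 and 2.70 CPM of Neurod6. It was named septal because Zic4, at 397 CPM, was considered before Tbr1, so Tbr1 does not separate these classes. The paper describes its septal excitatory neurons as lacking Tbr1, which this cluster does not.

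Cajal-Retzius cells, which lie at the cortical surface and produce reelin, carried the Nhlh genes with Neurod1 and Neurod2 but little Neurod6. The 165 cells led by Lhx1 held Nhlh2 at 439 CPM (411 to 469), Nhlh1 at 190 CPM and Neurod1 at 190 CPM, with Neurod4 at 0.99 CPM. The 53 cells led by Ccno, Mcidas and Foxj1, genes of multiciliated cells that are also known from the hem lineage, held Neurod4 at 23.6 CPM (13.2 to 38.9) and Neurod1 at 255 CPM, with Nhlh2 at 189 CPM (157 to 226) and Nhlh1 at 124 CPM. Neurod2 was at 115 and 120 CPM in the pair. In the vesicle the 197 Cajal-Retzius-like cells held Nhlh2 at 215 CPM and Neurod2 at 19.2 CPM, and 1 UMI of Neurod6.

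GABAergic-like neurons held very little of any member. In the explants 5 of the 5 members with enough UMIs were at least 4-fold higher in Tbr1 neurons, where 2.82% of 9039 genes were, and in the vesicle 5 of 5, where 1.98% of 10650 genes were. Of the same members 0 were lower, where 1.12% and 1.5% of genes were. Neurod4 had too few UMIs in both. Neurod1 was 98.0-fold higher (49.6 to 227) in the explants and 44.6-fold higher (29.0 to 72.3) in the vesicle, and Nhlh2 28.5-fold (19.5 to 43.3) and 66.7-fold (44.7 to 104). Neurod6 had 7 UMIs in 221 GABAergic-like neurons of the explants and 0 in 599 of the vesicle, so that it was at least 21.7-fold higher in Tbr1 neurons there, taking 3 UMIs as the floor. Septal glutamatergic-like neurons of the explants were also higher than GABAergic-like neurons in 3 of the 3 with enough UMIs, where 1.79% of 7982 genes were, and lower in 0, where 0.702% were. The GABAergic-like neurons held 2 to 27 UMIs of each member counted in the explants and 0 to 24 in the vesicle. Each such member reached the minimum of 50 UMIs only through the glutamatergic neurons. Neurod2, Neurod4 and Neurod6, with 28, 8 and 12 UMIs in the septal neurons, did not reach it there. These counts are therefore not independent of the minimum. Of the 33 other genes, 6 of 29 were higher in Tbr1 neurons than in GABAergic-like neurons of the explants, and 7 of 28 in the vesicle. These include Tbr1 and other genes that named the classes.

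Nhlh2 was the member most often seen in GABAergic-like neurons of the explants. It gave 27 UMIs in 19 of 221 cells, 11.2 CPM (7.41 to 16.4), which was 56.2% of the UMIs of the 6 genes there. The non-neural cells of the explants stood at 21.0 CPM for Nhlh2, and at 6.88 CPM (3.30 to 12.6) without the 2 erythroid-like cells, an interval that overlaps that of the GABAergic-like neurons. The share of cells with a UMI was 8.60% in GABAergic-like neurons (median 10236 UMIs), 12.9% in the non-neural cells and 10.3% without the 2. Subpallial-like APs stood lower, at 3.19 CPM (2.39 to 4.18). Along the subpallial axis Nhlh2 went from 3.5 CPM in bin 1 to 11.1 CPM (6.57 to 17.5) in bin 10 in the explants and from 0.6 to 4.4 CPM in the vesicle. The explant level lies below the background with the 2 cells and above its central value without them, so it is not read as expression. In the vesicle Nhlh2 at 5.28 CPM (3.38 to 7.86) and Neurod1 at 4.62 CPM (2.86 to 7.06) in GABAergic-like neurons lay above the 0.92 CPM that each showed in non-neural cells, in 2.504% and 1.67% of cells (median 6751 UMIs). Much of this came from few cells: the 2 highest cells held 9 of the 24 UMIs of Nhlh2, and the 2 highest 8 of the 21 of Neurod1.

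Single cells carried several members at once. In the Tbr1 neurons of the explants 43.6% of cells held 5 of the 6 and 0.6% held 0. In BP-like cells the number was spread from 0 (12.1% of cells) to 6 (3.7%). Septal glutamatergic-like neurons of the explants most often held 2 (41.6%), and 87.3% of subpallial-like APs held 0. The numbers were lower in the vesicle. There Tbr1 neurons most often held 2 (34.9%), 8.76% held 0 and 2.34% held 5. Septal glutamatergic-like neurons of the vesicle most often held 1 (34.7%), and 25.3% held 0. Neurod2 and Neurod6 went together closely: of the cells with a UMI of Neurod6, 70.7% held Neurod2 in the explants and 45.5% in the vesicle, where 15.2% and 2.12% of all neural cells held it. Neurod4 and Neurod6 met in 47 cells of the explants, 8.33% of the Neurod6 cells, where 197 of all 5166 neural cells held Neurod4. In the vesicle they met in 4 cells, 6.06% of the Neurod6 cells (1.68 to 14.8), where 225 of all 9661 did. The ratio of this pair was also above 1, at 2.19 (1.61 to 2.90) in the explants and 2.60 (0.71 to 6.66) in the vesicle. The shares rise with depth and with the place of cells along differentiation.

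Cells with Neurod4 held more UMIs of mitosis genes in the pallial lineage. The summed level of 10 mitosis genes there was, in the explants, 3252 CPM (3170 to 3335) in the 130 cells with a Neurod4 UMI and 1481 CPM (1467 to 1496) in the 1715 without it. In the vesicle it was 3264 CPM (3196 to 3333) in 167 cells and 2481 CPM (2467 to 2496) in 2882. For the other 5 genes the direction was the opposite in both libraries, from 1477 against 1656 CPM for Neurod1 of the explants to 723 against 2543 CPM for Neurod6 of the vesicle. The septal lineage of the explants differed, with 747 CPM (671 to 829) in the 40 cells holding Neurod4 and 1833 CPM in the 1105 without it. The cells with Neurod4 lay further along the axis than those without it in each of the 3 lineages, so the place of the cells along differentiation moves with this comparison.

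The genes whose levels ran most like each member were sought by Pearson's r of log2(CPM + 1) over 40 bins, 10 from each of 4 lineages in 1 library, which share cells, depth and the axis. For Neurod4 they were Rcor2 (0.78), Prmt8 and Cbfa2t2 among 10686 genes of the explants and Sstr2 (0.90), Rbfox3 and Cbfa2t2 among 13271 genes of the vesicle. For Neurod6 they were Rnd2 (0.91), Bcl11b and Etv1 in the explants and Aff3 (0.85), Gm13404 and Gjd2 in the vesicle. In the vesicle Neurod6 had 100 UMIs in these bins, under the 200 asked of the other genes, and 99 lay in the pallial lineage. Every r of Neurod6 in the vesicle therefore rests on few UMIs. Ebf2 and Mfap4 were among the 3 nearest of Neurod1, Neurod2 and Nhlh1 in the explants, and Lhx9 was among the 3 nearest of Neurod1, Neurod2, Nhlh1 and Nhlh2 in the vesicle. Among the members themselves, Neurod1, Nhlh1 and Nhlh2 ran most alike, with r of 0.95 to 0.96 in the explants and 0.97 to 0.98 in the vesicle. Neurod4 and Neurod6 ran least alike, at 0.485 and 0.42.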

How the data were processed

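Cells were profiled with droplet 3′ single-cell RNA-seq (10x kit v2 for the septal explants, v3.1 for the telencephalic vesicle). The authors deposited raw UMI counts per gene and cell barcode, made on mm10 with Cell Ranger 2.1.1 (explants) and 7.1.0 (vesicle) per the labels. The study's methods name only Cell Ranger 2.1.1 and the v2 kit. Whether intronic reads were counted is not given in the sources used here, and this could shift levels between the libraries. The counts were analysed for each library on its own. Barcodes more than 3 median absolute deviations from the median mitochondrial share, in either direction, were removed (383 and 1812). Doublets called by Scrublet in scanpy 1.11.5 were also removed (60 and 713). The call marked 1.10% and 5.72% of cells, where 4.36% and 9.98% were expected from loading. Cells were clustered with leidenalg 0.10.2 (2000 variable genes without the 6 members and without cell cycle genes, 30 components, 15 neighbours, resolution 1.5), and clusters were named from markers when at least 3 were present. The Tbr1 neurons were the exception: neuronal clusters not given another name first were named by Tbr1 and Slc17a6 alone. Unnamed cells, 148 and 873, were left out of the classes. APs without a regional name, 385 and 792 cells, were placed in no lineage.

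CPM are summed UMIs of a class per 1000000 of its UMIs. Intervals are Poisson for counts, exact binomial (Clopper-Pearson) for shares and conditional binomial for folds, at 95%. PCR and capture noise are not covered. For shares at equal depth, cells were thinned to 8000 (explants) and 3500 UMIs (vesicle), and shallower cells were left out (23 and 10 BP-like cells). With 1 library per group no test between groups was run, and a gene was counted when it differed at least 4-fold with at least 50 UMIs. The 3 genes most like a member were sought among genes with at least 200 UMIs. All 6 members were to be named, with the 33 other differentiation genes given by counts. Of that list 1 gene is not reported here: it is neither named nor drawn, and counts that would single it out are left out. The members, lists and markers were chosen with earlier results of these data known. Protein sequences were not used here. Alternatives changed the barcode and gene filters, doublets, clustering resolution and seed, the genes clustered, bins, folds and UMI minimums.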

Additional observations from a re-analysis of the deposited data

Results flagged for a closer look

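Neurod1 and Nhlh1 moved in opposite directions from BP-like cells to Tbr1 neurons in the septal explants and in the vesicle. The log2 fold of Neurod1 was 1.30 in the explants and -0.10 in the vesicle, and that of Nhlh1 was 1.01 and -0.39. The counting interval of the vesicle value for Neurod1, 0.86 to 1.01 as a fold, includes 1. Each group is 1 library, and the difference between them was not tested. Over 10 settings the value in the explants stayed at 1.06 to 1.33 for Neurod1 and at 0.74 to 1.04 for Nhlh1. These were the main setting, changes of the cells or clusters, and a mean over scaled cells. In the vesicle Nhlh1 stayed below 0, at -1.26 to -0.11, whereas Neurod1 ran from -1.23 to 0.12 and was above 0 in 3 of the 10. The libraries differ in dissection, mouse line, chemistry, Cell Ranger version and, in part, age, which cannot be told apart. They also differ in the makeup of the Tbr1 neurons, which formed 3 clusters in the explants and 1 in the vesicle. Whether that makeup sets the difference was not tested.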

How the results depend on the processing

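No paired analysis was possible because each group holds 1 library. The members' counts kept their value or stayed within 1.5 times of it in 118 of 130 comparisons. The exceptions concern 2 comparisons. Members at least 4-fold higher in Tbr1 neurons than in BP-like cells numbered 1 in each library. In the explants the number was 2 with every barcode kept, 0 at resolution 0.8, 2 at resolution 2.5, 5 at 2-fold and 0 at 8-fold. In the vesicle it was 0 with every barcode kept, 0 with at least 1000 genes per cell, 0 at resolution 2.5, 2 at 2-fold, 0 at 8-fold and 0 with at least 200 UMIs. Members higher in Tbr1 neurons than in GABAergic-like neurons of the vesicle numbered 5, and 3 with at least 200 UMIs. The cause was not tested where cells or clusters changed. No fold of a gene with enough UMIs changed sign between called values. Neurod4 came first on the pallial axis in 13 of 13 settings per library, and 13 to 15 (explants) and 12 to 15 (vesicle) of the 15 member pairs kept their order. CPM levels moved beyond their counting interval in 139 of 486 comparisons. Shares of cells with a gene were less stable: with cells thinned or 2 UMIs required, 94 of 132 moved beyond their interval. The ratio of cells holding both genes of a pair to the number expected from their shares moved in 67 of 90. Those alternatives were the same 2 and an expectation within axis bins. Log2 folds moved beyond a fixed limit on the log2 scale, not a counting interval, in 125 of 624. Septal-like BPs of the explants were not found at resolution 2.5 or with another seed, and septal glutamatergic-like neurons of the vesicle were not found with doublets kept, with at least 1000 genes, at resolutions 0.8 and 2.5 or with another seed. Leaving out 2 non-neural cells, a choice made after seeing the data, moved the explant background of Nhlh2 from 21.0 to 6.88 CPM. Neurod6 and Neurod2 gave few UMIs in the vesicle, 100 and 329, so their values there rest on low counts.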
